A study of Homo sapiens with 3 samples.

Results

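The 7 genes described here code for alpha tubulin (TUBA1B, TUBA1A and TUBA1C) and beta tubulin (TUBB, TUBB2A, TUBB2B and TUBB4B). They were chosen by name, and every count on the strand of the gene within a fixed window around it was taken, in the numbering of hg19. The windows held 414 of the 1730926 genome positions with a count, in 120 merged 3′ end sites, and all 7 genes had counts in all 3 libraries. The assay, 2P-seq, sequences mRNAs where the poly(A) tail is joined, so a count is a read of a 3′ end, does not grow with mRNA length and needs no scaling by length. The cells were HEK293T, an established human embryonic kidney line.

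There were 3 libraries, each the only one of its group. One held RNA captured after 60 min in 4-thiouridine (4sU), a uridine analogue that marks RNA made while it is present. One held RNA captured after 30 min in 4sU. The third was the input of the 30 min labelling, taken as steady-state RNA, although its treatment label reads none. The series compares newly made with steady-state ends. The labels' protocols state that captured RNA did not pass the initial poly(A) selection; they do not say this of the input. Nuclear counts were 6151986 at 60 min, 9652023 at 30 min and 32768468 in the input, and mitochondrial counts were 31.1%, 31.8% and 7.46% of each library in that order. With n = 1 per group no difference has a replicate check, and intervals (95%) cover counting error only. Reads carry no molecular identifiers, so copies of one molecule made by amplification are counted more than once.

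Alpha and beta tubulin form the dimer from which microtubules are built, and human cells make each from several closely related genes. The coding parts of these genes are nearly alike, whereas their 3′ ends differ, which is where these reads lie. TUBA1B and TUBB are widely expressed, TUBA1A, TUBB2A and TUBB2B are best known from developing brain, and TUBB4B is a widely expressed beta form that is also prominent in cilia. Tubulin mRNA is a textbook case of autoregulation: when free tubulin dimers are in excess, ribosomes that begin to make tubulin are recognised by their first amino acids, a step that involves TTC5, and the mRNA is degraded. None of the files names a gene, and no annotation of their build was used here, so partners of this pathway such as TTC5, the CCT chaperonin and the tubulin cofactors were not analysed here, nor were markers of the cell line. How reads that match several tubulin copies or pseudogenes were handled has no record in these sources, so levels of near-identical stretches are uncertain.

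All 7 genes had most of their counts at 1 site, a leading 3′ end. The strand named for each gene held between 95.9% and 100% of the counts of its window in every library. TUBA1B ended at chr12:49521569 on the minus strand, TUBA1A at chr12:49578585 on the minus strand and TUBA1C at chr12:49667114 on the plus strand. TUBB ended at chr6:30692353 on the plus strand, TUBB2A at chr6:3153906 on the minus strand, TUBB2B at chr6:3224732 on the minus strand and TUBB4B at chr9:140138160 on the plus strand. The leading site took 70.9% to 85.2% of the counts of TUBB2B, 97.0% to 97.5% of those of TUBB and at least 96.3% of those of each other gene. TUBB and TUBB2B had further ends past the naming rule of at least 20 counts over the 3 libraries and 1% of the gene's counts in any library, which are described below with their shares. The remaining 110 sites had at most 19 counts each over the 3 libraries.

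The promoters of these genes are shown because they differ in whether they hold TATAAA or TATATA, exact forms of the TATA box, an element that positions many transcription starts. The lines below give the 60 bases before the annotated start, 5′ to 3′ on the strand of the gene, from RefSeq on GRCh38.p14, a build other than that of the counts. Capitals mark exact TATAAA or TATATA, searched on both strands, and matches of both may overlap. Near matches, such as one in TUBB2B, are not marked. For TUBA1C the start nearest the 3′ end of the gene is printed, the only one of its 3 listed starts with either motif. For TUBB the outermost of 2 is printed, and neither holds one.
TUBA1B: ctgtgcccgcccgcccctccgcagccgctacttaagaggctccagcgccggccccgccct
TUBB: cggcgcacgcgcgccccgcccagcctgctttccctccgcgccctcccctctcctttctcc
TUBA1A: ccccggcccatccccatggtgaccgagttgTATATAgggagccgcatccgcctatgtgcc
TUBA1C: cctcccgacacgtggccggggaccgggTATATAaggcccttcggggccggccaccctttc
TUBB2A: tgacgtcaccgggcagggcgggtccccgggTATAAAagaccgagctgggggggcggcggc
TUBB2B: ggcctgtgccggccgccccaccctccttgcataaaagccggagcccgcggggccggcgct
TUBB4B: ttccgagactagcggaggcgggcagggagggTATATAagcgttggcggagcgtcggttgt
On this build they lie at chr12:49131396-49131455, chr6:30720292-30720351, chr12:49189081-49189140, chr12:49265022-49265081, chr6:3157545-3157604, chr6:3227654-3227713 and chr9:137241227-137241286, in the order of the lines. The motif was in 4 of the 10 listed starts of these genes, those of TUBA1A, TUBA1C, TUBB2A and TUBB4B, where it began at -30, -33, -30 and -29 from the start. It was in 4.62% of all 35116 listed promoters over the same length. The listed starts of the genes with the most ends, TUBA1B and TUBB, did not hold these letters. This is a description of sequence, and transcription from these starts was not measured.

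One gene made up most of the ends of these tubulin genes in every library. TUBA1B, the main alpha tubulin gene here, had 57334 counts at 60 min, 84912 at 30 min and 319036 in the input. That was 9320, 8797 and 9736 counts per 1000000 nuclear counts (CPM), or 0.932%, 0.880% and 0.974% of all nuclear ends. TUBB, the most abundant beta gene here, came next with 814 CPM at 60 min, 1020 CPM at 30 min and 840 CPM in the input. The other 5 genes lay far below both, between 29.7 and 360 CPM.

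TUBA1C had 142 CPM at 60 min, 281 CPM at 30 min and 360 CPM in the input. TUBA1A had 110 CPM, 135 CPM and 291 CPM in the same order. Both alpha genes were highest in the input. TUBB2B had 84.9 CPM at 60 min, 133.2 CPM at 30 min and 133.1 CPM in the input, and its neighbour TUBB2A had 60.8 CPM, 94.3 CPM and 76.0 CPM in that order. TUBB4B was the only one of the 7 lowest in the input, with 70.1 CPM at 60 min, 101.6 CPM at 30 min and 29.7 CPM in the input.

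The order of levels differed between libraries only in TUBB2A and TUBB4B, whose intervals overlapped in both captured libraries. In the input it ran TUBA1B, TUBB, TUBA1C, TUBA1A, TUBB2B, TUBB2A and TUBB4B, with counting intervals that did not overlap between neighbours. At 30 min TUBA1A (127 to 142 CPM) and TUBB2B (126 to 141 CPM) overlapped, as did TUBB4B (95.4 to 108 CPM) and TUBB2A (88.3 to 101 CPM). At 60 min TUBB4B (63.6 to 77.0 CPM) overlapped TUBB2A (54.8 to 67.3 CPM) and lay below TUBB2B (77.7 to 92.5 CPM).

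**Figure D1:**
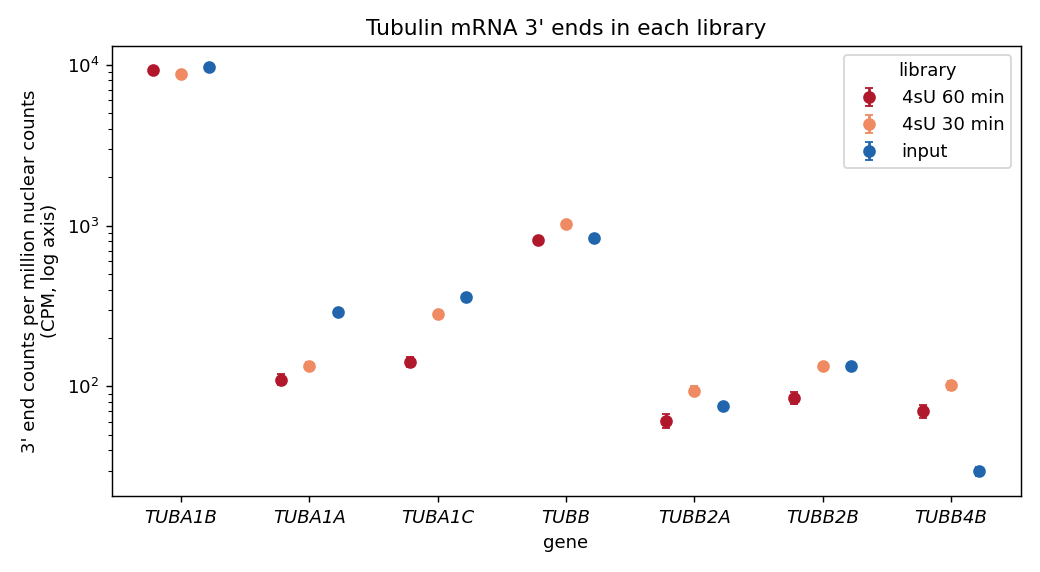
Counts per 1000000 nuclear counts (CPM, log axis) of the 7 tubulin genes in the 4sU 60 min, 4sU 30 min and input libraries. Points are single libraries and bars are 95% Poisson intervals of the counts. TUBA1B lies between 8797 and 9736 CPM in all libraries, and TUBB4B is lowest in the input, at 29.7 CPM.

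After 30 min of labelling 1 of the 7 genes was higher than in the input, 1 was lower and 5 were neither. A gene or site was called when its ratio of CPM was at least 2-fold and its interval excluded 1. By the same rule 35.3% of 10843 nuclear sites, those that averaged 10 CPM or more, were called higher and 17.1% lower. A count of 1 in 7 genes in either direction is no more than this background. The gene called higher was TUBB4B, with 981 counts at 30 min against 972 in the deeper input, or 3.43-fold higher in CPM (3.13 to 3.75). The gene called lower was TUBA1A, with 1299 counts against 9537, or 2.16-fold lower (2.04 to 2.29). Without its highest position TUBA1A fell short of the call, at a log2 ratio of -0.95 against -1.11.

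The other 5 genes lay between a ratio of 0.779 for TUBA1C and 1.24 for TUBB2A. TUBB was at 1.21 (1.19 to 1.24), TUBB2B at 1.001 (0.940 to 1.07) and TUBA1B at 0.904 (0.897 to 0.910). Without their highest positions TUBA1C and TUBA1B lay above the input, at log2 ratios of 0.99 in place of -0.36 and 0.026 in place of -0.15. The direction of TUBA1C at this time thus depends on whether chr12:49667114 is kept. These positions held a larger share in the input, so leaving them out raises the ratio to it. The median log2 ratio of the 7 genes was 0.0016, against 0.37 over the 10843 sites, and 6 of the 7 genes lay below that median. The median depends on the level of the sites compared. Over the 3041 sites that averaged 50 CPM or more it was 0.045, with TUBB, TUBB2A and TUBB4B above it. Among the 10843 sites TUBB2A and TUBB were the nearest to the median, with 48.7% and 48.0% of sites below them. TUBB4B had 78.6% of sites below it and TUBA1A had 15.0%, so neither is extreme among all sites. Median-of-ratios scaling moved every log2 ratio to the input by -0.37 at 30 min and -0.068 at 60 min, and with it TUBB and TUBB2A lay below the input at 30 min, at -0.088 and -0.057.

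After 60 min 1 gene was higher than in the input, 2 were lower and 4 were neither, where 27.3% of sites were called higher and 21.8% lower, so the shares of 7 genes were again near the background. TUBB4B was again the gene called higher, at 2.36-fold (2.10 to 2.65) and with 431 counts against 972. With mitochondrial counts in the total its log2 ratio was 0.81 in place of 1.24, which is under 2-fold. TUBA1A was 2.64-fold lower (2.45 to 2.86), with 677 counts against 9537. TUBA1C was 2.54-fold lower (2.37 to 2.73), with 872 counts against 11806. The call was lost without chr12:49667114, when the log2 ratio of TUBA1C was -0.069 in place of -1.35. That position, the highest of the gene, held 86.1% of the leading site's counts in the input and 67.4% at 60 min. Leaving out a position with a larger share in the input must raise the ratio to it.

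The pair of abundant genes stayed closest to the input at 60 min, TUBB at a ratio of 0.969 (0.940 to 0.998) and TUBA1B at 0.957 (0.949 to 0.966). Without their highest positions TUBB, TUBA1B and TUBB2A lay above the input, at log2 ratios of 0.21, 0.047 and 0.062. With all positions TUBB2A was at 0.800 (0.716 to 0.893) and TUBB2B at 0.638 (0.581 to 0.698). With mitochondrial counts in the total TUBB2B passed the call as lower, at a log2 ratio of -1.07. The median log2 ratio of the 7 genes was -0.32, against 0.063 over all sites and -0.057 over those that averaged 50 CPM or more. Both labelling times were set against the same input library, so the ratios of a gene at 30 and 60 min are not separate evidence of its difference from the input.

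None of the 7 genes passed 2-fold between 60 and 30 min, where 4.58% of sites were called higher and 14.0% lower. TUBA1C came closest, with 142 CPM at 60 min against 281 CPM at 30 min, or 1.98-fold lower (1.83 to 2.14). Counted at its leading site alone, with 857 against 2692 counts, it passed the call, at a ratio of 0.499 (0.462 to 0.540), but not with positions merged within 48 nt, at a log2 ratio of -0.998. TUBA1C as a whole lay at -0.68 with median-of-ratios scaling. TUBB2B was at 0.637 (0.574 to 0.706), TUBB2A at 0.645 (0.570 to 0.728) and TUBB4B at 0.689 (0.614 to 0.773). TUBA1A and TUBB lay near the median site, at ratios of 0.818 and 0.798. TUBA1B stood apart as the only gene above 1, at 1.06 (1.05 to 1.07), with 70.2% of sites below it. The median log2 ratio was -0.54 for the 7 genes, -0.27 for all sites and -0.11 for those that averaged 50 CPM or more. Median-of-ratios scaling moved every log2 ratio between the labelling times by 0.30, and with it TUBA1A lay at 0.0097, so its direction is not settled, while TUBA1B stayed the highest of the 7 at 0.38.

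**Figure D2:**
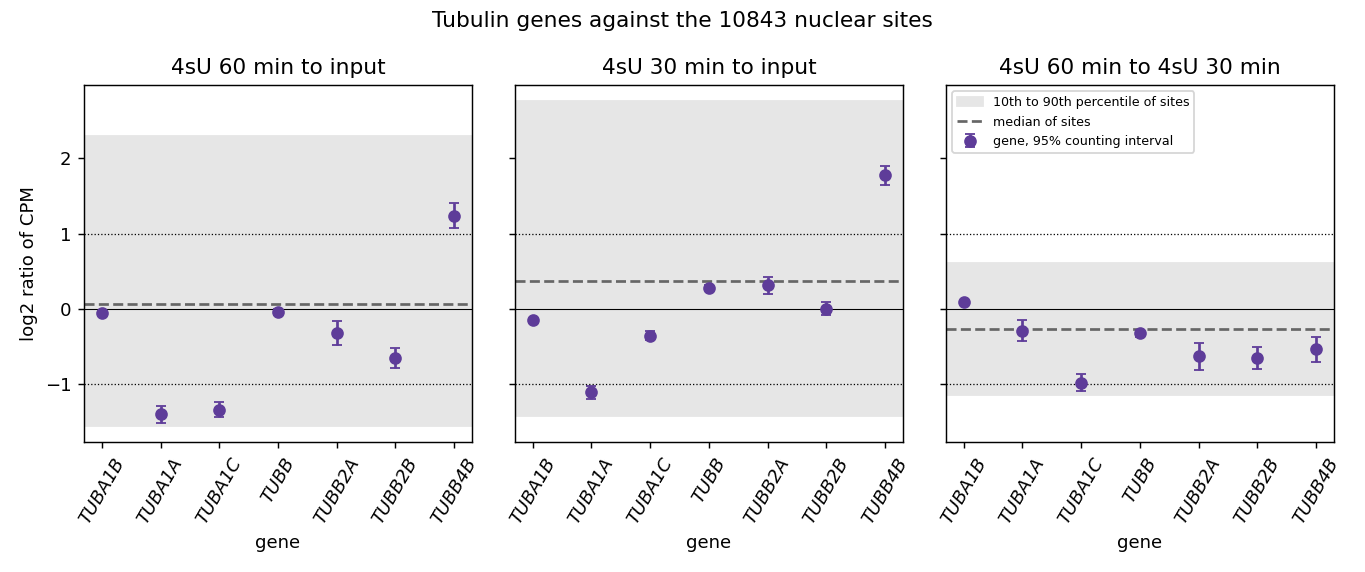
log2 ratio of CPM for each tubulin gene in 3 comparisons: 4sU 60 min to input, 4sU 30 min to input, and 4sU 60 min to 30 min. Points carry 95% counting intervals, dotted lines mark 2-fold, and the grey band and dashed line show the 10th to 90th percentile and the median of 10843 nuclear sites. All 7 genes lie inside the grey band in each comparison, with TUBB4B the highest and TUBA1A the lowest against the input.

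Shares within a library do not depend on the scaling between libraries. They are shares of the alpha or beta genes described here, and other tubulin genes were not counted. TUBA1B held 97.4% of these alpha ends at 60 min (97.2 to 97.5) and 95.5% at 30 min (95.4 to 95.6). In the input it held 93.7% (93.6 to 93.8). TUBA1A held 1.15% at 60 min, 1.46% at 30 min and 2.80% in the input, and TUBA1C held 1.48%, 3.05% and 3.47% in that order. The alpha genes other than TUBA1B thus had the smallest share at 60 min, and none of these 3 intervals overlapped for either gene.

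Among these beta genes TUBB held 79.0% of ends at 60 min (78.0 to 80.0) and 75.6% at 30 min (74.9 to 76.3). In the input it held 77.9% (77.4 to 78.3), and the interval at 30 min lay below both others. TUBB4B held 6.80% at 60 min (6.21 to 7.45), 7.53% at 30 min (7.09 to 7.997) and 2.75% in the input (2.58 to 2.92), so that only the input stood apart. TUBB2B went the other way, with 8.24% at 60 min, 9.87% at 30 min and 12.3% in the input. TUBB2A held 5.90% at 60 min, 6.99% at 30 min and 7.04% in the input, and the intervals at 30 min and in the input overlapped.

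Over these genes the alpha to beta ratio was 9.30 at 60 min (9.06 to 9.54) and 6.83 at 30 min (6.70 to 6.95). In the input it was 9.63 (9.52 to 9.73). It was lowest at 30 min, where beta ends summed to 1.25 times their CPM in the input (1.23 to 1.28). Alpha ends summed to 0.887 times (0.880 to 0.893). On the log2 scale the beta sum was at 0.32, while median-of-ratios scaling moves every ratio to the input at 30 min by -0.37. With mitochondrial counts in the total the move is -0.44. Whether beta ends lay above the input at 30 min thus depends on the scaling. The alpha to beta ratios rest on TUBA1B. Without it, an alternative added once the values were known, the ratio was 0.245 at 60 min, 0.308 at 30 min and 0.604 in the input, so the order of the libraries differs.

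TUBB2B, a beta tubulin gene, had a second strong end, and its use differed between all libraries. This end, at chr6:3224517 on the minus strand, lies 215 nt downstream of the leading one. It took 12.8% of the gene's counts at 60 min (67 of 522, 10.2 to 16.0), 18.5% at 30 min (238 of 1286, 16.5 to 20.7) and 27.95% in the input (1219 of 4361, 26.6 to 29.3). The share differed by -15.1 points between 60 min and the input (-18.0 to -11.7) and by -9.45 points between 30 min and the input (-11.9 to -6.87). Between 60 and 30 min it differed by -5.67 points (-9.09 to -1.93). The library closest to the input in this share was therefore that of 30 min, the labelling that the input was taken from. Labelling time and this shared origin cannot be told apart here.

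In CPM the downstream end of TUBB2B had 10.9 at 60 min, 24.7 at 30 min and 37.2 in the input. Its ratio to the input was 0.293 at 60 min (0.225 to 0.375) and 0.663 at 30 min (0.574 to 0.762), and its ratio of 60 to 30 min was 0.442 (0.332 to 0.581). At 60 min 6.55% of sites had a lower ratio to the input. The upstream end, at the leading site, had 72.3 CPM at 60 min, 105.7 CPM at 30 min and 94.4 CPM in the input, with ratios to the input of 0.766 and 1.12. The ratio of the gene as a whole lay between those of its ends at both times. The downstream end was also the broadest of the 9 tubulin sites that averaged 10 CPM or more, with a standard deviation of positions between 7.46 and 7.58 nt in the 3 libraries. Another small end, 66 nt downstream of the leading one, had 5 counts at 60 min, 18 at 30 min and 30 in the input, below the level at which sites were compared. Its ratio to the input was 0.888 at 60 min (0.269 to 2.31) and 2.04 at 30 min (1.07 to 3.77).

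TUBB had a second end 848 nt downstream of the leading one, at chr6:30693201 on the plus strand, and its share did not differ detectably. It took 2.56% of the gene's counts at 60 min (128 counts), 2.51% at 30 min (247 counts) and 2.40% in the input (660 counts). The difference from the input was 0.159 points at 60 min (-0.284 to 0.665) and 0.111 points at 30 min (-0.235 to 0.482). With positions merged within 24 nt, the mean position within this end did differ. It lay at -0.852 nt from its highest position at 60 min, at -2.16 nt at 30 min and at 0.091 nt in the input. Standard errors of counting were 0.422, 0.380 and 0.138 nt, and negative is upstream. Merged within 12 nt, the end's log2 ratio of 30 min to input was 0.107 in place of 0.345. Part of its 30 min counts thus lay more than 12 nt from its highest position. The difference in mean position may rest on such counts.

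**Figure D3:**
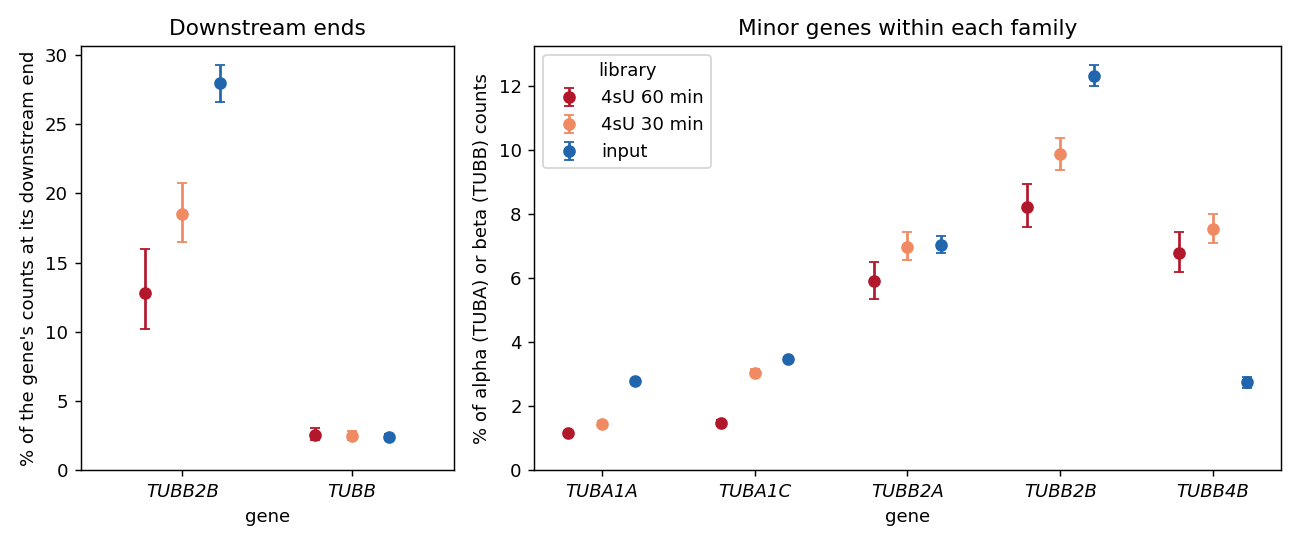
Left, percent of counts at the downstream end of TUBB2B and of TUBB in the 4sU 60 min, 4sU 30 min and input libraries. Right, percent of the counts of the alpha or beta genes described here that each gene other than TUBA1B and TUBB held. Bars are 95% Wilson intervals. The TUBB2B downstream end holds 12.8%, 18.5% and 27.95%, while that of TUBB stays between 2.40% and 2.56%, and TUBB4B is higher in both captured libraries than in the input.

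Within the leading sites, the position with the most counts over the 3 libraries held a smaller share in captured RNA than in the input in all 7 genes, at both labelling times. Among the 4874 sites that averaged 30 CPM or more this was so in 59.2% at 60 min and 69.3% at 30 min. The input, as the deepest library, does most to decide which position that is, which favours a high share there. The difference ran between -18.7 points for TUBA1C and -2.50 points for TUBA1B at 60 min, and between -21.2 points for TUBA1C and -4.01 points for TUBA1B at 30 min. Over all these sites the median was -1.15 points at 60 min and -2.44 points at 30 min.

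In TUBB4B the counts formed a pair of clusters, and the upstream cluster was larger in captured RNA. The position 5 nt upstream of the leading one held 27.7% of site counts at 60 min, 27.8% at 30 min and 12.4% in the input, and that 7 nt upstream held 17.1%, 17.7% and 9.22% in that order. The leading position held 26.0% at 60 min, 20.2% at 30 min and 38.4% in the input. In the captured libraries the most used position was the one 5 nt upstream, narrowly so at 60 min with 115 against 108 counts. The mean position moved by -1.59 nt (upstream) between 60 min and the input, with a standard error of counting of 0.251 nt, and by -1.44 nt between 30 min and the input, with one of 0.186 nt.

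TUBA1C showed a like pattern with a sharper peak. Its position 5 nt upstream, chr12:49667109, held 16.2% of site counts at 60 min (139 of 857), 19.5% at 30 min (525 of 2692) and 3.21% in the input (379 of 11797). The leading position held 67.4% at 60 min, 64.9% at 30 min and 86.1% in the input. In CPM the upstream position had 22.6 at 60 min, 54.4 at 30 min and 11.6 in the input. It was thus above the input in both captured libraries, while the leading position, with 93.95 CPM, 181 CPM and 310 CPM in that order, was below it.

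In TUBB2A the neighbour that gained lay downstream. The position 2 nt downstream of the leading one held 30.2% at 60 min, 30.5% at 30 min and 18.7% in the input, while the leading position held 53.2%, 52.5% and 64.3% in that order. In TUBB, whose leading position held 44.6% at 60 min, 39.3% at 30 min and 53.7% in the input, positions on both sides gained. The one 1 nt downstream held 13.5%, 12.9% and 9.33% in that order, the one 2 nt downstream 4.94%, 5.88% and 1.52%, and the one 2 nt upstream 8.44%, 9.91% and 6.77%. The one 1 nt upstream did not gain, with 22.2%, 24.9% and 24.4%, the last 2 within counting error. In TUBB2B, whose leading position held 42.0%, 43.0% and 53.7%, the positions 2 nt to either side both held more in captured RNA: the upstream one 9.21%, 9.80% and 3.91%, and the downstream one 7.19%, 8.43% and 3.04%. In TUBA1A the gain lay 1 nt upstream, at a position that held 21.1% at 60 min, 21.1% at 30 min and 15.3% in the input.

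The share of counts that would have to move between positions to turn one library's profile into the other's gives 1 number per site. Against the input it was 26.4 points at 60 min and 25.4 points at 30 min for TUBB4B, above 99.5% of the 4874 sites at both times. For TUBA1C it was 19.0 points at 60 min and 21.5 points at 30 min, above 95.9% and 98.5% of sites. TUBB2A, TUBB and TUBB2B lay between 11.4 and 15.3 points, TUBA1A at 9.23 and 8.49, and TUBA1B at 4.15 and 5.45, in the order 60 and 30 min. The median site had 9.56 points at 60 min and 9.31 points at 30 min.

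The captured libraries resembled each other in these profiles more than either resembled the input. Between 60 and 30 min the number was 10.1 points for TUBB4B, 6.16 for TUBB, 4.68 for TUBA1C and 3.42 or less for the other 4 genes, against a median of 7.30 over all sites. It grows at low counts, since sparse profiles differ by sampling, and TUBB4B has 415 counts at this site at 60 min. Both captured libraries went through the same capture and selection steps, and their part in these profiles was not tested.

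**Figure D4:**
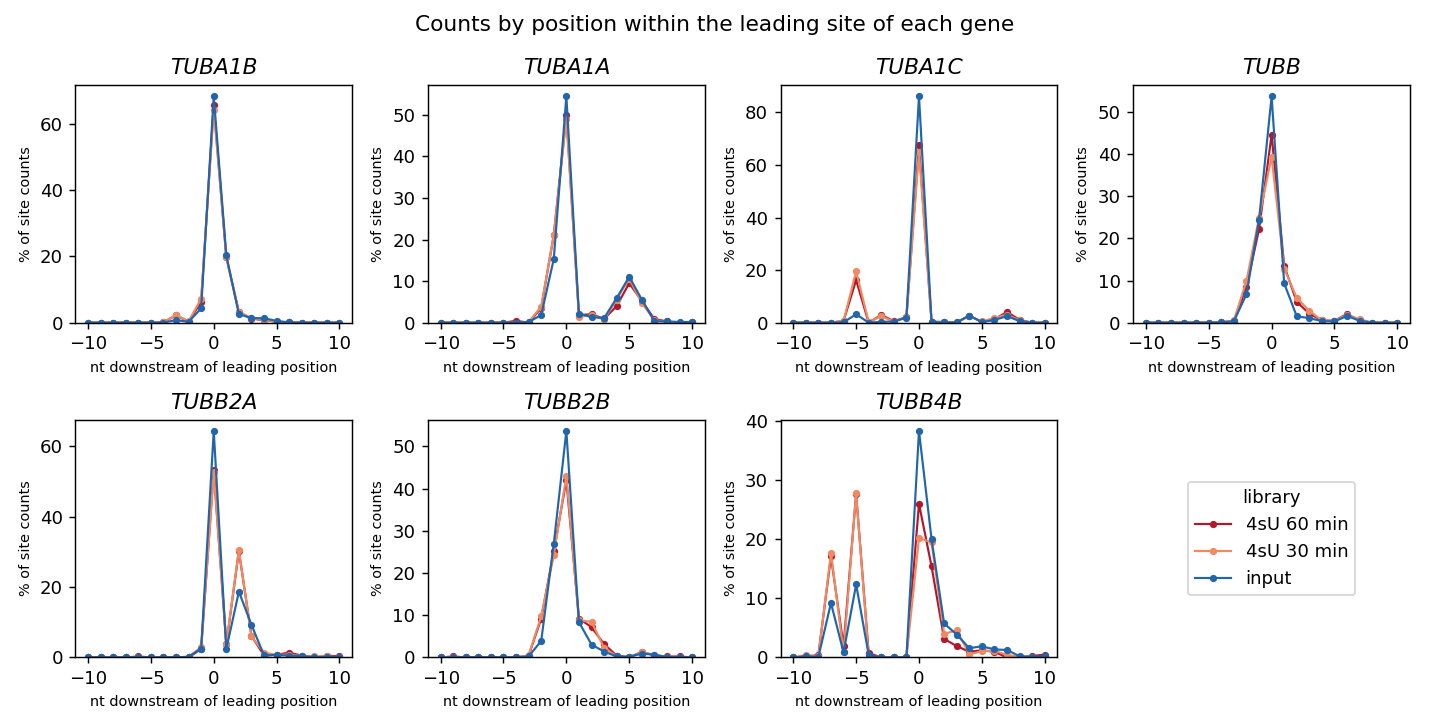
Percent of the leading site's counts at each position, in nt downstream of the leading position, for the 7 tubulin genes. Lines are the 4sU 60 min, 4sU 30 min and input libraries, 1 each. The peak at 0 is lower in both captured libraries in every panel, and TUBA1C and TUBB4B have a peak 5 nt upstream that is higher there than in the input.

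Summed over the 7 genes, the log2 ratio to the input was -0.11 at 60 min and -0.12 at 30 min. Among 1518 other sites that averaged 100 CPM or more, the nearest to this pair of values over the 3 libraries were chr1:36859021 on the minus strand, chr1:46035720 on the plus strand and chr14:103986004 on the minus strand, at distances of 0.023, 0.034 and 0.058 on the log2 scale. The last of these had 879 CPM at 60 min, 927 CPM at 30 min and 975.2 CPM in the input. These sites are named by position only.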

How the data were processed

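The authors deposited raw read counts per position and strand, in 1 table per library; all values were whole numbers, with no normalization. The tools cutadapt and Bowtie stand in the submitters' processing notes, with versions, roles, the handling of multi-mapping reads and the build not given in the sources used here. Positions were read as hg19, in which the windows were given: counts on chromosome 1 reached 249223263, past the last gene of the GRCh38.p14 table at 248937099, and the mitochondrial numbering reached 16571. Positions are printed 1-based.

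Totals were 8926568 counts at 60 min, 14159691 at 30 min and 35410931 in the input. A count of 3, the floor for a count of 0, is 0.488, 0.311 and 0.0916 CPM in that order. Positions within 24 nt of a local maximum of summed counts were merged into a site. CPM is counts per 1000000 nuclear counts. The strand in the tables was taken as that of the RNA. Ratios carry exact 95% Clopper-Pearson intervals for a pair of Poisson counts, shares Wilson and differences of shares Newcombe intervals. The ratio step was tested on simulated Poisson counts, which hold counting error only, so the test does not cover copies made by amplification. Python 3.11.15, numpy 2.4.6, pandas 2.3.3, scipy 1.17.1 and matplotlib 3.10.9 were used, and edgeR 4.0.16 only for TMM factors. Sites were named if leading in a gene, or with at least 20 counts over the 3 libraries and 1% of the gene's counts in any library. Alternatives were other scalings, merging distances, filters and sets of positions. The members and lists were chosen with earlier results of these data known.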

Additional observations from a re-analysis of the deposited data

Results flagged for a closer look

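Counts outside the main measurement had ratios to the input above 1 around TUBA1C. So did the median of the 10843 nuclear sites, and it lay further above 1 once sites of lower counts were included. Over the 40146 nuclear sites that averaged 1 CPM or more, abundant ones among them, the median log2 ratio to the input was 0.47 at 60 min and 0.97 at 30 min. Of these sites 37.5% and 48.9% were called higher. On the strand opposite to the gene, its window had 15 counts at 60 min, 19 at 30 min and 11 in the input, or 2.44, 1.97 and 0.336 CPM. The ratio to the input was 7.26 at 60 min (3.12 to 17.5) and 5.86 at 30 min (2.65 to 13.6). The window is the longest of the 7, and these reads cannot be tied to a transcript here. They are a sum over the window and not a site, so the values over sites are no direct match for them. A site on the strand of the gene at chr12:49668382, 1268 nt downstream of the leading end and outside the window, had 49 counts at 60 min, 91 at 30 min and 188 in the input. Its ratio to the input was 1.39 at 60 min (0.992 to 1.91) and 1.64 at 30 min (1.27 to 2.12). On the log2 scale these are 0.47 and 0.72, at the median of those sites at 60 min and below it at 30 min. The opposite strand of the TUBB2A window had more counts than that of TUBA1C, with 16 at 60 min, 28 at 30 min and 104 in the input. In CPM these were 2.60, 2.90 and 3.17, so they were highest in the input.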

How the results depend on the processing

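No paired analysis was possible because each group has 1 library. Of 126 gene ratios under alternatives, 7 crossed the 2-fold call and 0 turned the direction of a called gene; of 60 site ratios, 1 crossed it (the TUBA1C leading site at 60 to 30 min, merged within 48 nt) and 0 turned where called. Ratios of genes not called did turn, as given with them. Scaling moves all genes together. The median log2 ratio of the 7 genes at 30 min to input, 0.0016, was -0.44 with mitochondrial counts in the total, -0.37 by median-of-ratios and -0.36 by TMM scaling; it was 0.16 with leading sites only and 0.65 without each gene's highest position. At 60 min to input, -0.32, it was -0.75 with mitochondrial counts in the total and 0.047 without the highest positions. For 60 to 30 min, -0.54, median-of-ratios scaling gave -0.24 and TMM gave -0.28. Without the highest positions the genes called lower were 0 at 30 min and 1 at 60 min, and with mitochondrial counts 0 were called higher at 60 min. Leaving out the highest positions raises ratios to the input, since each held a larger share of its leading site there. Between 60 and 30 min, 1 gene was called lower with leading sites only, with sites of at least 20 counts, or without the highest positions. The alpha to beta ratio at leading sites was 9.66 at 60 min, 7.13 at 30 min and 10.2 in the input, and without TUBA1B 0.245, 0.308 and 0.604. The share of all sites called lower at 30 min to input was 26.7% with mitochondrial counts. Between 60 and 30 min median-of-ratios scaling gave 8.27% of sites higher and 6.78% lower, and TMM gave 7.58% and 7.48%; sites of at least 1 CPM gave 8.12% higher, and those of at least 50 CPM gave 7.10% lower. Leaving out each replicate was not possible with 1 library per group. Leaving out TUBA1B was added after its values were seen. Depth limits TUBB2A and TUBB4B most, with 374 and 431 counts at 60 min, and differences between libraries have no replicate check.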
